A study of Mus musculus with 6 samples.

Results

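The genes described here are 10 genes of iron and metal handling in mouse liver: the hepcidin genes Hamp and Hamp2, transferrin (Trf), the transferrin receptors Tfrc and Tfr2, the ferritin chains Fth1 and Ftl1, ferroportin (Slc40a1), and the metallothioneins Mt1 and Mt2. They were taken by symbol from the deposited expression table, which lists 54532 genes, and each symbol matched 1 row. Of the 10 genes, 9 were high enough to be tested and Mt2 was not. The study asked how loss of G3bp1, which encodes an RNA-binding protein of stress granules, affects the fatty liver. RNA was sequenced from 3 libraries of mice lacking G3bp1 in hepatocytes (HKO) and from 3 libraries of their litter controls (Flox). All mice received a high-fat diet for 12 weeks, beginning at 6 weeks of age, so no group here shows the liver on a normal diet. The Cre driver, the deleted exons, the strain and the sex are not named in the sources used here, nor is it said whether each library is 1 animal, so the spread between libraries may be technical.

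Hepcidin is a peptide hormone made by hepatocytes that binds ferroportin, the only known exporter of iron from mammalian cells, and has it degraded, which keeps iron inside macrophages, hepatocytes and gut cells. Transferrin carries iron in blood, transferrin receptors take it up or sense it, and ferritin stores it as a shell of heavy and light chains. When a cell is short of iron, iron regulatory proteins bind hairpins in messenger RNA called iron-responsive elements. Bound near the start of a message they block its translation, and bound near its end they protect it from decay. Metallothioneins are small cysteine-rich proteins that bind zinc and copper, and their genes are induced by metals, glucocorticoids and inflammation.

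The hairpins are shown first because they are the sites through which iron regulatory proteins act on these messages, on translation or on decay depending on where they lie. A search of the transcripts in GENCODE release M21 (build GRCm38) looked for an unpaired C, 5 bases, the loop CAGTGN and 5 bases that pair with the first 5, allowing G with U. It found 1 element before the coding sequence of Fth1, Ftl1 and Slc40a1, and 4 after that of Tfrc. Elements of this form are rare: 20 of 20701 genes (0.0966%) had one before the coding sequence and 118 of 21684 genes (0.544%) had one after it. Each is printed 5′ to 3′ with the loop in capitals.
Fth1, chr19:9982733-9982759, plus strand: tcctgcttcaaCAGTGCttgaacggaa
Ftl1, chr7:45459780-45459806, minus strand: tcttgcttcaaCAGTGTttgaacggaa
Slc40a1, chr1:45925466-45925492, minus strand: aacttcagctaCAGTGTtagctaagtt
Tfrc element 1, chr16:32631220-32631246, plus strand: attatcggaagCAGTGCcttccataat
Tfrc element 2, chr16:32631599-32631625, plus strand: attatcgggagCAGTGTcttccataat
Tfrc element 3, chr16:32631664-32631690, plus strand: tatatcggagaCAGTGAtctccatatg
Tfrc element 4, chr16:32631711-32631737, plus strand: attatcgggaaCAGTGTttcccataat

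The promoters of the hepcidin genes are shown because Hamp and Hamp2 are near-copies that sit close together on chromosome 7. RefSeq (GRCm38.p6) gave a promoter for 8 of the 10 genes, and for Trf and Slc40a1 it gave none. The 250 bases before each start were searched on both strands for GGCGCC, the core of the element through which bone morphogenetic protein (BMP) signals act on hepcidin, and for TTCNNNGAA, the form bound by STAT factors. The motifs do not overlap, and matches are in capitals.
Hamp, chr7:30944030-30944279, minus strand: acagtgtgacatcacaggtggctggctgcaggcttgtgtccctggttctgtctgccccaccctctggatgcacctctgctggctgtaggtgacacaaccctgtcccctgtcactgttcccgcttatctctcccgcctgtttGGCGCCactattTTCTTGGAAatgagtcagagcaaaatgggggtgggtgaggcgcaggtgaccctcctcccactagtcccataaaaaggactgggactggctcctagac
Hamp2, chr7:30924182-30924431, minus strand: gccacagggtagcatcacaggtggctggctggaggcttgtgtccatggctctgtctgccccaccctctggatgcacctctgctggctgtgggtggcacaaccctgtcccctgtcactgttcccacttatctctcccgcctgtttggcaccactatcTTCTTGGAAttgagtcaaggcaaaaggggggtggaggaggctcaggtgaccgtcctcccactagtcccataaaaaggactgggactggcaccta

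Hamp held GGCGCC at 109 to 104 bases before its start and TTCTTGGAA at 97 to 89 bases. In Hamp2 the STAT form stood at 94 to 86 bases and GGCGCC was not among these letters. The windows aligned with 89.7% identity, 227 of 253 columns. GGCGCC occurred in 9.59% and TTCNNNGAA in 7.02% of 32851 promoter windows of the same length. Among the other genes described here, GGCGCC also stood in a window of Tfrc, at 89 to 84 bases before the start. The part of these motifs in the levels of Hamp and Hamp2 was not tested.

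The 6 libraries held 15804115 to 17954066 assigned reads. Values are FPKM, reads of a gene divided by its length and by a scaled library size. Comparisons between genes thus depend on the lengths used, and those between libraries on the scaling. Summed FPKM ran between 412344 and 422735 in HKO and between 431497 and 494433 in Flox, so every HKO sum was lower. On the TPM scale, which divides by these sums, the median log2 fold change of all tested genes was 0.15, against -0.0054 on FPKM. G3bp1, the targeted gene, had 4.66, 4.27 and 4.44 FPKM in HKO 1, 2 and 3, against 8.46, 8.46 and 9.10 FPKM in Flox 1, 2 and 3. The groups did not overlap, and the log2 fold change was -0.83 (SE 0.0879), although its p adjusted over all genes was 0.11 (limma). Liver samples mix several cell types, so fewer cells of a type and less RNA per cell cannot be told apart in any value below. The samples carried hepatocyte RNA in bulk: the summed level of 8 hepatocyte markers ran between 37534 and 46976 FPKM in HKO and between 44204 and 45943 FPKM in Flox. Of these 8 markers 1 was higher and 7 were lower in HKO, 4 and 4 on the TPM scale, and 0 passed. On the TPM scale 2 lay above and 6 below the median of all tested genes.

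Across the 9 tested genes none passed the test between HKO and Flox (limma on log2(FPKM + 1), Benjamini-Hochberg adjustment over 11856 genes, threshold 0.05), and none had an unadjusted p under 0.05. Their adjusted p ran between 0.667 and 0.981. Over the whole table the test called 1 gene, 0.00843% of those tested. The mean log2 level was lower in HKO for 7 of the 9 genes and higher for Tfr2 and Slc40a1, with a median log2 fold change of -0.25 against -0.0054 over all tested genes, of which 51.2% were lower. In each of the 10 genes the HKO and Flox libraries overlapped. Over all tested genes every HKO library lay below every Flox library in 7.21%, and above in 6.06%. The smallest two-sided p that an exact permutation test of 3 against 3 can give is 0.1, and no gene here reached it.

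**Figure D1:**
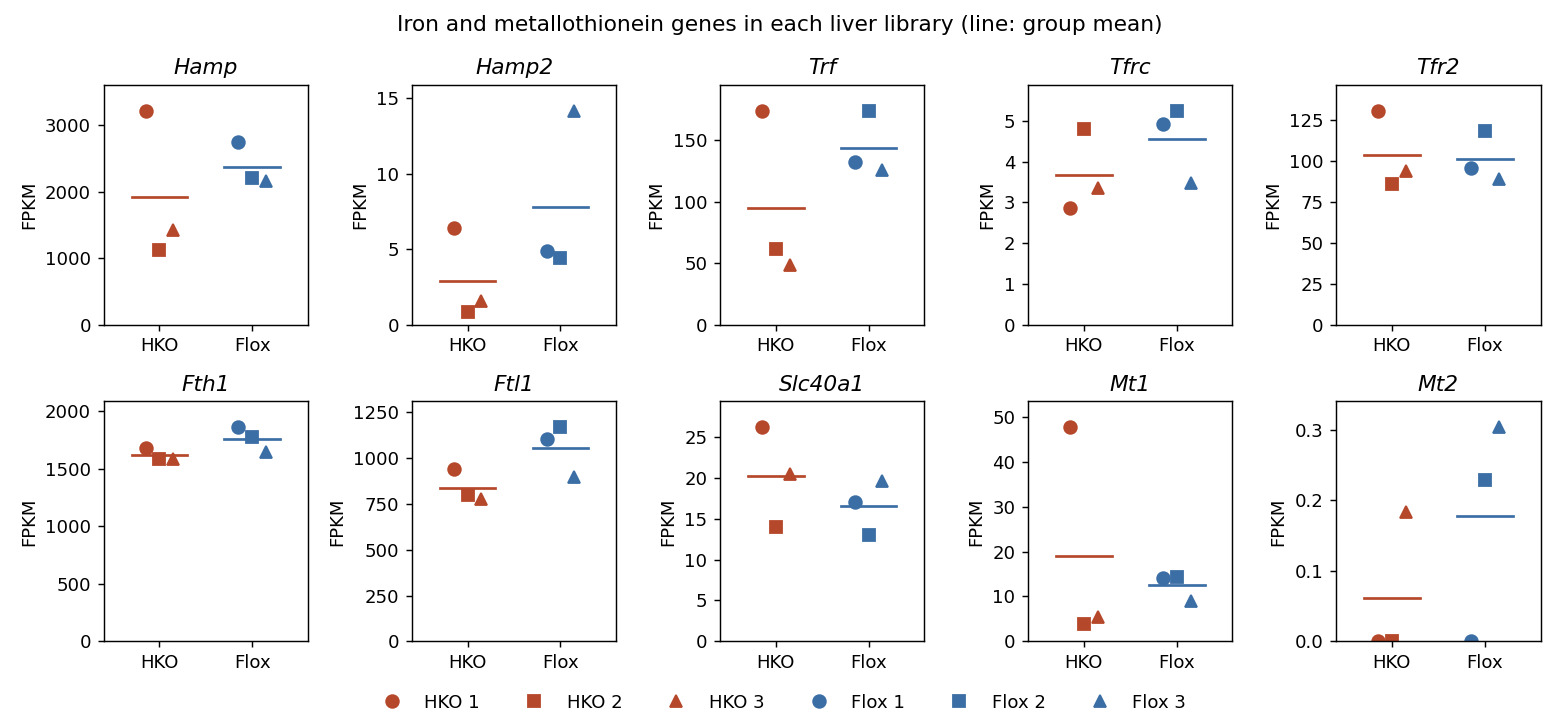
FPKM (vertical axis, linear and drawn from 0) of each of the 10 genes in 3 HKO libraries (left, red) and 3 Flox libraries (right, blue), with the group mean as a line and the replicate number as the symbol. HKO 1 (red circle) lies at or above the Flox libraries for Hamp, Trf and Mt1, while HKO 2 and HKO 3 lie below all 3 Flox libraries for those genes.

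Hamp was among the most abundant messages of the liver, ranking 27th of 22046 protein-coding genes by mean FPKM. It had 3223, 1122 and 1427 FPKM in HKO 1, 2 and 3, against 2757, 2212 and 2169 FPKM in Flox 1, 2 and 3. The highest library and both of the lowest were HKO, so the groups overlapped and the HKO group spread far more widely: the highest HKO library was 2.87 times the lowest, against 1.27 times in Flox. Means were 1924 ± 1135 FPKM in HKO and 2379 ± 328 FPKM in Flox (SD, n = 3 each). The log2 fold change was -0.45 (SE 0.381, 95% interval -1.36 to 0.45, limma adjusted p 0.748). With 7681 reads in HKO 2, where it was read least, counting error is small beside this spread.

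Hamp2, the second mouse hepcidin gene, lies on the same chromosome and its product is not known to lower blood iron in mice. It was read 66, 8 and 17 times in HKO 1, 2 and 3, and 44, 38 and 139 times in Flox 1, 2 and 3. These reads made 6.38, 0.822 and 1.57 FPKM in the HKO libraries, against 4.91, 4.39 and 14.2 FPKM in the Flox libraries. HKO 2 and HKO 3 were the lowest of the 6, HKO 1 lay inside the Flox range, and Flox 3 stood above all others. The log2 fold change of -1.27 (SE 0.61, 95% interval -2.73 to 0.19) was the largest of the 9 in size and did not pass (limma adjusted p 0.671). The transcripts of Hamp and Hamp2 are 93.0% identical over their full length, so how reads were divided between them is uncertain, and Hamp2 could hold stray reads of the far more abundant Hamp.

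The ratio of Hamp to Hamp2 was 505, 1365 and 907 in HKO 1, 2 and 3, against 561, 504 and 153 in Flox 1, 2 and 3. HKO 2 and HKO 3 had the highest ratios and Flox 3 the lowest. The difference of mean log2 ratios, HKO minus Flox, was 1.28 (exact two-sided permutation p = 0.2, adjusted p 0.4 over the 4 ratios tested). Without Flox 3 it was 0.69.

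The list of BMP and SMAD genes, the main route by which iron stores set hepcidin, held 20 tested genes, of which 13 were higher and 7 lower in HKO and 0 passed in either direction. Hfe2, which encodes hemojuvelin, the BMP co-receptor of hepatocytes, had 41.1, 38.6 and 46.9 FPKM in the HKO libraries, against 56.5, 72.4 and 49.7 FPKM in the Flox libraries. Hfe, the gene mutated in most human haemochromatosis, had 14.0, 11.3 and 10.9 FPKM in the HKO libraries, against 14.6, 14.5 and 14.1 FPKM in the Flox libraries. In both genes every HKO library lay below every Flox library, but neither passed (log2 fold change -0.47, limma adjusted p 0.648 for Hfe2, and -0.25, adjusted p 0.667 for Hfe). Smad6, an inhibitor of the pathway, lay below as well (-0.35, adjusted p 0.648), and Acvr1, a BMP receptor, lay above (0.20, adjusted p 0.667). Across the 20 genes, every HKO library lay below every Flox library in 4 and above every Flox library in 3. The shares over all tested genes were 7.21% and 6.06%. Hfe2, Hfe and Smad6 were lower in HKO 1 than in every Flox library, so they did not share the high HKO 1 value of Hamp. Id1, another gene of the list, had 9.48, 6.04 and 4.18 FPKM in the HKO libraries, against 9.37, 7.14 and 8.16 FPKM in Flox. Like Hamp it was highest in HKO 1, if only just, and HKO 2 and HKO 3 lay below every Flox library. Of the 20 tested genes in the list, 2 were highest in HKO 1 and 9 in HKO 2, where Hamp was lowest. The part of BMP signals in the Hamp values was not tested.

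Interleukin-6 is the other main inducer of hepcidin, acting through its receptor and STAT3. Of 6 tested genes in this list 5 were higher and 1 lower, and 0 passed. Il6ra, the receptor subunit that binds the cytokine, had 5.40, 5.89 and 3.61 FPKM in the HKO libraries, against 2.96, 2.74 and 2.93 FPKM in the Flox libraries. All 3 HKO libraries were higher, with a log2 fold change of 0.60 (SE 0.157, limma adjusted p 0.58). Socs3, a target and brake of STAT3, had 6.86, 3.13 and 4.55 FPKM in the HKO libraries, against 9.30, 17.7 and 2.68 FPKM in the Flox libraries, with overlapping groups.

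Transferrin followed the same order of libraries as Hamp only in part. Trf had 174, 61.5 and 48.3 FPKM in HKO 1, 2 and 3, against 132, 174 and 126 FPKM in Flox 1, 2 and 3. HKO 1 was level with the highest Flox library, and HKO 2 and HKO 3 were the lowest. Means were 94.7 ± 69.2 FPKM in HKO and 144 ± 26.3 FPKM in Flox (SD, n = 3 each), and the log2 fold change was -0.82 (SE 0.461, 95% interval -1.92 to 0.29, limma adjusted p 0.685). Trf shares 2108 of its 3320 exon bases (63.5%) with Gm20425, an annotated gene on the same strand, and Gm20425 was listed with 0 reads in all 6 libraries. Spread over only the 1212 bases that are its own, the reads of Trf would make 477, 169 and 132 FPKM in the HKO libraries and 362, 477 and 344 FPKM in the Flox libraries, so the level of Trf is uncertain while its ratios between libraries are not affected by that choice.

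Tfrc, the receptor that brings iron-loaded transferrin into cells, was low, with 2.87, 4.80 and 3.34 FPKM in HKO 1, 2 and 3, against 4.91, 5.25 and 3.48 FPKM in Flox 1, 2 and 3. HKO 1 was the lowest library for this gene, the reverse of its place for Hamp, and the groups overlapped. The log2 fold change was -0.25 (SE 0.189, 95% interval -0.70 to 0.19, limma adjusted p 0.728). Tfrc is also abundant in red cell precursors. Of 6 tested erythroid markers 6 were lower in HKO and 0 passed, and their summed level over 9 markers was 138, 272 and 210 FPKM in the HKO libraries, against 333, 298 and 337 FPKM in the Flox libraries. HKO 1 had the lowest sum and the lowest Tfrc, but within Flox the order was not shared: Flox 3 had the highest sum and the lowest Tfrc of the controls, and Flox 2 the lowest sum and the highest Tfrc. The part of these cells, or of blood left in the samples, in the level of Tfrc was not tested.

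Tfr2, the hepatocyte receptor that senses loaded transferrin for hepcidin control, had 130, 85.9 and 93.8 FPKM in HKO 1, 2 and 3, against 95.4, 118 and 88.9 FPKM in Flox 1, 2 and 3. HKO supplied both the highest and the lowest library. The log2 fold change was 0.023 (SE 0.191, 95% interval -0.43 to 0.47, limma adjusted p 0.981), and its sign turned to -0.16 without HKO 1. Tfr2 exceeded Tfrc by 45.4, 17.9 and 28.1 times in the HKO libraries, against 19.4, 22.5 and 25.5 times in the Flox libraries. That log2 ratio differed by 0.34 (exact two-sided permutation p = 0.5, adjusted p 0.6 over 4 ratios), and by 0.0040 without HKO 1.

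Ferritin messages were abundant, and Fth1 varied least of the tested genes within each group. Fth1, the heavy chain that oxidises iron for storage, had 1680, 1580 and 1581 FPKM in HKO 1, 2 and 3, against 1859, 1774 and 1641 FPKM in Flox 1, 2 and 3. HKO 2 and HKO 3 were the lowest and HKO 1 lay just above Flox 3. The log2 fold change was -0.12 (SE 0.127, 95% interval -0.42 to 0.18, limma adjusted p 0.78); it turned to 0.056 on the TPM scale, where the median of all genes was itself at 0.15.

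Ftl1, the light chain that helps the iron core form, had 942, 798 and 777 FPKM in HKO 1, 2 and 3, against 1104, 1170 and 895 FPKM in Flox 1, 2 and 3. The groups overlapped only in that HKO 1 lay above Flox 3. Means were 839 ± 89.7 FPKM in HKO and 1056 ± 143 FPKM in Flox (SD, n = 3 each). The log2 fold change of -0.33 (SE 0.158, 95% interval -0.70 to 0.045) had the smallest unadjusted p of the 9 genes, 0.0761, and an adjusted p of 0.667 (limma). It was -0.15 on the TPM scale and -0.088 under quantile normalization. A processed copy, Ftl1-ps1, is 99.6% identical, so some reads may have been divided between them. Ftl1 also shares 34.6% of its exon bases with other annotated genes.

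With the lengths the table uses, Fth1 over Ftl1 was 1.78, 1.98 and 2.03 in HKO 1, 2 and 3, against 1.68, 1.52 and 1.83 in Flox 1, 2 and 3, and HKO 1 lay below Flox 3. Spread over only its own 876 bases, Ftl1 would reach 1789 FPKM in Flox 2, above the 1774 FPKM of Fth1 there, so which chain is the more abundant is uncertain. The mean log2 ratio was 0.95 ± 0.10 in HKO and 0.74 ± 0.14 in Flox (SD, n = 3 each), a difference of 0.21 (exact two-sided permutation p = 0.2, adjusted p 0.4 over 4 ratios). Fth1 and Ftl1 carry their hairpins, printed above, before the coding sequence, and Tfrc carries its own after it. The log2 ratio of Tfrc to Fth1, which iron regulatory proteins can move through Tfrc message decay, differed by -0.20 (exact two-sided permutation p = 0.6, adjusted p 0.6 over 4 ratios), and by -0.0084 without HKO 1. Of 4 tested genes for iron regulatory proteins and their control, 3 were higher and 1 lower and 0 passed. The lower one, Aco1, which encodes iron regulatory protein 1, had 44.5, 52.1 and 53.9 FPKM in the HKO libraries, against 57.4, 57.7 and 57.8 FPKM in the Flox libraries (log2 fold change -0.20, limma adjusted p 0.685).

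Slc40a1, the exporter on which hepcidin acts, had 26.2, 14.0 and 20.6 FPKM in HKO 1, 2 and 3, against 17.1, 13.0 and 19.7 FPKM in Flox 1, 2 and 3. HKO 1 was again the highest, and HKO 2 lay inside the Flox range. Means were 20.3 ± 6.12 FPKM in HKO and 16.6 ± 3.38 FPKM in Flox (SD, n = 3 each), with a log2 fold change of 0.25 (SE 0.242, 95% interval -0.32 to 0.82, limma adjusted p 0.768). That value was 0.050 without HKO 1 and 0.48 without HKO 2, when both remaining HKO libraries lay above every Flox library, and it was 0.43 on the TPM scale.

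Ferroportin is especially abundant in Kupffer cells, the macrophages that recycle red cell iron. Of 9 tested Kupffer markers 9 were higher in HKO and 0 passed, with a median log2 fold change of 0.71, and none was listed at 0. Their summed level was 278, 165 and 207 FPKM in HKO 1, 2 and 3, against 110, 122 and 201 FPKM in Flox 1, 2 and 3. HKO 1 had the highest sum and the highest Slc40a1, and Flox 3 had the highest of the controls in both. The order was not shared throughout: Flox 1 had the lowest sum but 17.1 FPKM of Slc40a1, above Flox 2 at 13.0 and HKO 2 at 14.0 FPKM. The part of these cells in the Slc40a1 level was not tested. Among their markers Vsig4, a complement receptor, had 19.4, 19.2 and 28.8 FPKM in the HKO libraries, against 11.8, 10.7 and 14.3 FPKM in the Flox libraries (log2 fold change 0.81, limma adjusted p 0.58). Every HKO library lay above every Flox library in 4 of the 9 markers, against 6.06% of all tested genes. Cd5l and C1qa, the most abundant of these markers, overlapped between the groups.

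**Figure D2:**
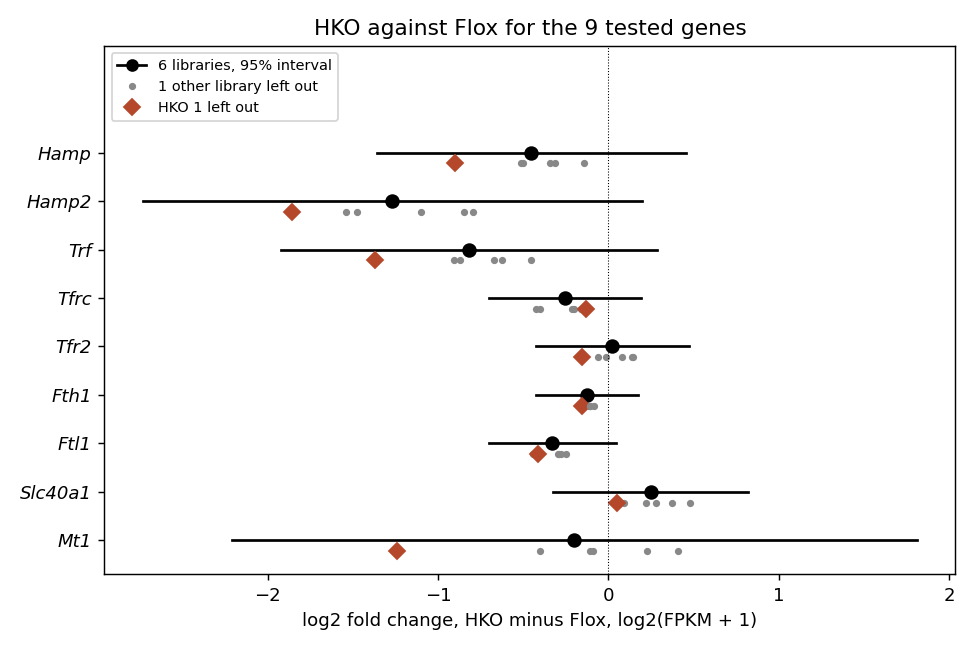
Log2 fold change of the 9 tested genes, HKO minus Flox, from log2(FPKM + 1) values (horizontal axis), with black points and 95% intervals from all 6 libraries, grey dots for fits without 1 other library and red diamonds for the fit without HKO 1. Every interval includes 0, and the diamonds of Hamp, Hamp2, Trf and Mt1 lie farther below 0 than the black points, at -0.90, -1.86, -1.37 and -1.24.

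Mt1 varied most of the 9 tested genes within HKO. It had 47.8, 3.94 and 5.37 FPKM in HKO 1, 2 and 3, against 14.0, 14.4 and 9.02 FPKM in Flox 1, 2 and 3. HKO 1 lay above all Flox libraries and HKO 2 and HKO 3 below all of them, so the highest HKO library was 12.1 times the lowest. This rested on 1057, 82 and 124 reads in the HKO libraries and 269, 267 and 189 reads in the Flox libraries. The mean was higher in HKO on the linear scale, 19.0 ± 24.9 FPKM against 12.5 ± 3.02 FPKM in Flox (SD, n = 3 each), while the mean log2 level was lower, with a log2 fold change of -0.20 (SE 0.838, 95% interval -2.21 to 1.81, limma adjusted p 0.952). The sign of the difference thus depended on the scale, and on 1 library: it was -1.24 without HKO 1, 0.41 without HKO 2 and 0.23 without HKO 3. The table divides its reads by 1246 bases, whereas the transcript Mt1-201 has 549, so its level may be understated.

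Mt2 was nearly absent from the table, with 0, 0 and 2 reads in HKO 1, 2 and 3, against 0, 2 and 3 reads in Flox 1, 2 and 3. All 6 libraries were at or under 3 reads, the limit that a count of 0 allows, so no fold change is given and the ratio of Mt1 to Mt2 was not computed. Mt1 and Mt2 are neighbours on chromosome 8 and are known to be induced together in mouse liver. Of the 588 exon bases of Mt2, 432 (73.5%) are also exon bases of Gm45774, an antisense gene, and Gm45774 had 0 reads in all 6 libraries too. The library kit does not mark strand, so a read in the shared bases matches both genes and the level of Mt2 is uncertain.

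Genes listed at 0 were most frequent at high overlap in the table as a whole. Among protein-coding genes, 4998 of 15411 without any exon overlap were listed at 0 in all 6 libraries (32.4%), and 11.02% of those with up to 50% overlap. The share was 26.5% of 358 genes above 50 and up to 90%, the range that holds Mt2 and Trf, 73.5% of 98 genes above 90%, and 92.1% of 177 genes covered in full. Mt2 and Trf themselves had reads. By a looser measure, at most 10 reads over all 6 libraries, which Mt2 meets, the share was 45.3% in that middle range and 42.7% without overlap. The sources used here do not say how shared bases were counted, and the part of the overlap in the low reading of Mt2 was not tested.

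**Figure D3:**
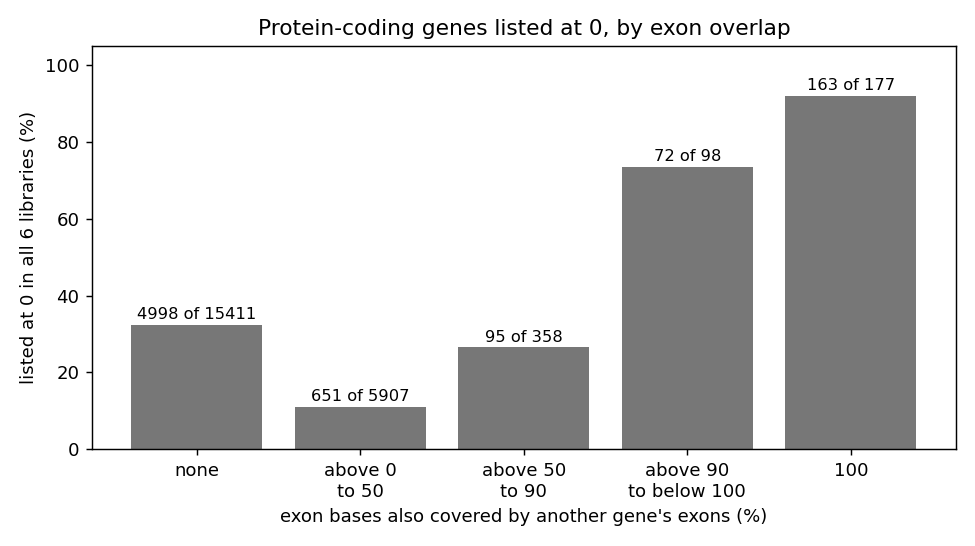
Share of protein-coding genes listed at 0 in all 6 libraries (vertical axis, %), by the percentage of their exon bases that another annotated gene also covers, with the counts above the bars. The share is 32.4% without overlap and 92.1% at full overlap, and Mt2 (73.5% overlapped) and Trf (63.5%) belong to the middle bar at 26.5%.

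Glucocorticoids and metals induce Mt1, and neither list of their genes held one that passed. Of 10 genes in the glucocorticoid list, which includes the receptor gene Nr3c1, 7 were higher and 3 lower. Without Flox 2, 4 were higher and 6 lower, and without Flox 1 or HKO 2 there were 5 each way. Tsc22d3, a standard glucocorticoid target, had 23.5, 22.9 and 29.6 FPKM in the HKO libraries, against 18.6, 10.9 and 19.4 FPKM in the Flox libraries (log2 fold change 0.64, limma adjusted p 0.648). All 3 HKO libraries were above every Flox library. The part of glucocorticoids or metals in the Mt1 values was not tested. Gadd45g, a growth arrest gene, had 14.9, 13.7 and 36.1 FPKM in the HKO libraries, against 62.7, 125 and 18.0 FPKM in the Flox libraries (log2 fold change -1.38, limma adjusted p 0.684). Of 23 tested zinc and copper genes 16 were higher and 7 lower. Mtf1, the zinc sensor that switches on metallothioneins, had 1.91, 2.42 and 1.90 FPKM in the HKO libraries, against 1.52, 1.28 and 1.78 FPKM in the Flox libraries (log2 fold change 0.29, adjusted p 0.651). Ccs, the copper chaperone of superoxide dismutase, had 132, 81.9 and 88.7 FPKM in the HKO libraries, against 136, 167 and 114 FPKM in the Flox libraries (-0.47, adjusted p 0.667).

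The split within HKO was shared by several of the iron genes. Relative to each gene's own mean, HKO 1 stood at 1.98 for Mt1, 0.67 for Hamp, 0.55 for Hamp2 and 0.70 for Trf on the log2 scale. HKO 2 stood at -1.32, -0.85, -1.47 and -0.79 for the same genes in that order, and HKO 3 at -0.96, -0.50, -0.98 and -1.13. With HKO 1 left out, every remaining HKO library lay below every Flox library in 6 of the 9 genes, namely Hamp, Hamp2, Trf, Fth1, Ftl1 and Mt1, where 16.5% of all tested genes did so. HKO 1 was singled out after it was seen to be high for these genes, so this separation is in large part built in by leaving it out. Without Flox 3 the same held for 3 genes (Fth1, Ftl1 and Tfrc) against 19.2% of all tested genes, without HKO 2 for Tfrc alone, and without Flox 1, Flox 2 or HKO 3 for 0. These genes share the same 5 libraries, so the 6 are not separate observations, and none passed in that fit: the smallest adjusted p was 0.147, for Trf (limma). Hamp then had a log2 fold change of -0.90 and an adjusted p of 0.336, but it was at -0.31 without HKO 3 and at -0.14 without HKO 2. Trf was at -0.45 without HKO 3, and Hamp2 at -0.85 without HKO 2 and at -0.79 without Flox 3. That fit called 12 genes lower and 1 higher in the whole table, against 1 lower and 0 higher with all libraries.

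**Figure D4:**
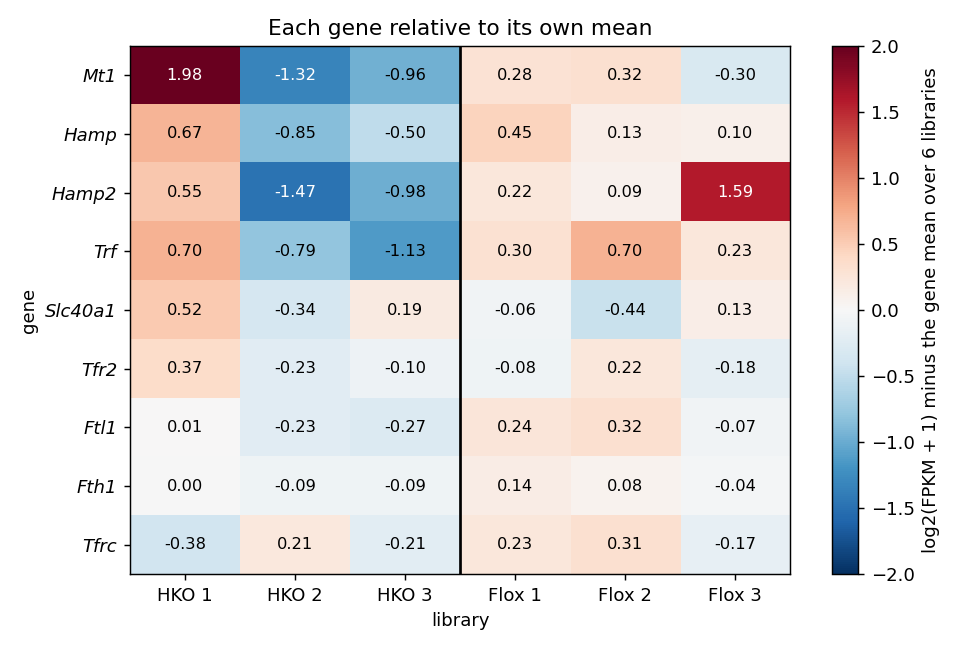
Log2(FPKM + 1) of the 9 tested genes in each library minus the gene's mean over all 6 (colour and printed value), with HKO libraries left of the line and Flox libraries right. Mt1, Hamp, Hamp2 and Trf are above their means in HKO 1, at 0.55 to 1.98, and below them in HKO 2 and HKO 3, at -0.50 to -1.47, while Tfrc is lowest in HKO 1, at -0.38.

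Acute phase genes, which the liver makes in inflammation, were highest in HKO 1 for 7 of 11, in Flox 1 for 3 and in HKO 2 for 1. Of 11 tested genes 10 were higher and 1 lower in HKO by mean log2 level and 0 passed, but 7 were higher and 4 lower without Flox 3. The median log2 fold change was 0.29 with all libraries and 0.096 without Flox 3. Their summed level was 5941, 4252 and 4541 FPKM in HKO 1, 2 and 3, against 4651, 4193 and 3384 FPKM in Flox 1, 2 and 3. Lcn2, which binds iron carriers of bacteria, had 30.9, 3.93 and 9.07 FPKM in the HKO libraries, against 4.94, 10.1 and 2.20 FPKM in the Flox libraries. It was not among the genes of this list with the smallest unadjusted p. Itih4, another acute phase protein, had 947, 616 and 596 FPKM in the HKO libraries, against 509, 501 and 495 FPKM in the Flox libraries (log2 fold change 0.49, limma adjusted p 0.648). HKO 1 was the highest library for both, while in the summed level HKO 2 and HKO 3 lay inside the Flox range. Saa1, a serum amyloid named after its values were seen, had 238, 53.7 and 99.6 FPKM in the HKO libraries, against 476, 65.9 and 11.3 FPKM in the Flox libraries. Its mean FPKM was lower in HKO, 131 against 184, while its mean log2 level was higher, and the same held for Orm2 at 34.7 against 41.0 FPKM. Saa2 and Orm2 were highest in Flox 1 as well, so the high HKO 1 values of Hamp and Mt1 were not shared by all of these genes. The part of inflammation in the HKO 1 values of the iron genes was not tested.

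Haem and haemoglobin salvage genes were divided, with 4 of 8 highest in HKO 1. Of 8 tested genes 8 were higher and 0 passed, but without HKO 1 only 3 were higher and 5 were lower. Hpx, which carries free haem in blood, had 5442, 3234 and 3320 FPKM in the HKO libraries, against 3804, 3449 and 3027 FPKM in the Flox libraries. Hmox1, which breaks haem down and frees its iron, had 17.2, 8.18 and 10.9 FPKM in the HKO libraries, against 6.80, 10.4 and 14.5 FPKM in the Flox libraries. In both, HKO 1 was the highest library and the other HKO libraries lay inside the Flox range. Cd163, the macrophage receptor for haemoglobin bound to haptoglobin, was higher in all 3 HKO libraries, with 2.49, 1.74 and 3.23 FPKM against 1.07, 1.16 and 1.11 FPKM in Flox (log2 fold change 0.70, limma adjusted p 0.58), and it is also a Kupffer marker.

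Other iron routes gave no call. Of 12 tested genes for uptake, reduction and chaperoning of iron, 8 were higher and 4 lower. Steap4, a metalloreductase, had 50.7, 43.6 and 66.5 FPKM in the HKO libraries, against 35.1, 39.5 and 45.3 FPKM in the Flox libraries (log2 fold change 0.40, limma adjusted p 0.661). Slc39a14, the hepatocyte importer of iron not bound to transferrin, had 19.6, 16.2 and 18.2 FPKM in the HKO libraries, against 13.2, 13.6 and 17.4 FPKM in the Flox libraries (0.28, adjusted p 0.667). Of 6 tested mitochondrial iron genes 1 was higher and 5 lower, but 5 were higher on the TPM scale. On that scale 2 lay above and 4 below the median of all tested genes. Cp, the ferroxidase that works with ferroportin, was the only tested gene of its list and had 117, 135 and 130 FPKM in the HKO libraries, against 126, 123 and 127 FPKM in the Flox libraries.

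Ordered by level in HKO, Hamp at 1122 to 3223 FPKM overlapped Fth1, followed by Ftl1, then Tfr2 at 85.9 to 130 FPKM and Trf at 48.3 to 174 FPKM, which overlapped, then Slc40a1, Mt1, Tfrc, Hamp2 and Mt2. In Flox, Hamp at 2169 to 2757 FPKM, Fth1 at 1641 to 1859, Ftl1 at 895 to 1170, Trf at 126 to 174 and Tfr2 at 88.9 to 118 FPKM had ranges that did not overlap. Slc40a1 and Mt1 overlapped in both groups, as did Hamp2 and Tfrc. The reads of Slc40a1 are divided by 9000 bases, whereas the transcript Slc40a1-201 has 3370, so its level, like that of Mt1, may be understated. Hamp, Fth1 and Ftl1 led in both groups. The place of Trf is uncertain, since over its own bases alone it would lie above Tfr2 in both groups, at 132 to 477 FPKM in HKO and 344 to 477 FPKM in Flox.

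Genes with the most similar profile were sought among 9069 tested genes of at least 1 FPKM on average, by the root-mean-square difference of centred log2 values over 6 libraries. For Mt1, whose own root-mean-square deviation was 1.07, the nearest were the ribosomal protein gene Rpl21 at 0.485, Smim22 at 0.547 and Rps27rt at 0.554, none of them a metal gene. Rpl21 had 19.2, 3.44 and 2.73 FPKM in the HKO libraries, against 3.96, 5.07 and 5.20 FPKM in the Flox libraries, and so also stood out in HKO 1. For Hamp, with a deviation of 0.525, the nearest were Cox16 at 0.146, Cyp2c38 at 0.150 and Smim22 at 0.150. For Tfrc, with a deviation of 0.262, they were Ccng2 at 0.0609, Dsc2 at 0.0744 and Sdr9c7 at 0.0765.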

How the data were processed

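Per the labels' protocols, total RNA from frozen liver was isolated on RNeasy Plus columns and 1.3 µg entered NEBNext Ultra libraries, which do not mark strand. The authors deposited 1 table of FPKM values per gene and library. The submitters' processing notes name GRCm38 and mm10; no source used here names the aligner, the counter or its annotation. Gene length times FPKM gave whole reads for 100% of values above 0 (within 0.02 reads), so reads could be recovered. Table lengths equalled the union of exons in GENCODE M21 for 98.0% of matched genes, though not for Fth1.

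Because FPKM are not counts, log2(FPKM + 1) was fitted in limma 3.58.1 (R 4.3.3, trend and robust moderation, two-sided) for the 11856 genes that reached 0.5 FPKM in 3 or more of the 6 libraries, with Benjamini-Hochberg adjustment and a threshold of 0.05. The fit was tested on simulated data with the same variability set for every gene, which does not show how it handles the uneven spread within HKO. Ratios used exact permutation tests in SciPy 1.17.1. A fold change on this scale understates low genes. Transcript copies were sought with blastn 2.17.0 (at least 97% identity over 80% of the length) and exon overlaps with bedtools 2.31.1. The labels do not say whether replicate numbers pair the libraries, so the main fit was unpaired. The members and gene lists were chosen with earlier results of these data known. All 10 members are named. Of each pathway list, genes with the smallest unadjusted p could be named, and Id1, Lcn2, Saa1, Saa2 and Orm2 were named outside that rule. Alternatives were other pseudocounts, filters, scalings and moderation, voom on the recovered reads, a replicate block and leaving out each library.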

Additional observations from a re-analysis of the deposited data

How the results depend on the processing

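No iron or metallothionein gene passed under any of the 15 alternatives. Of 134 alternative values for the 9 tested genes 128 kept their sign and 6 turned it, with adjusted p between 0.147 and 0.997. Fth1 turned to 0.056 under TPM. Leaving out 1 library at a time gave -0.16 to 0.14 for Tfr2 (-0.16 without HKO 1, -0.011 without Flox 1, -0.061 without Flox 3) and -1.24 to 0.41 for Mt1 (0.41 without HKO 2, 0.23 without HKO 3). Over all alternatives the log2 fold change ran between -0.90 and -0.14 for Hamp, -1.86 and -0.79 for Hamp2, -1.37 and -0.45 for Trf, -0.42 and -0.13 for Tfrc, -0.44 and -0.088 for Ftl1, and 0.050 and 0.48 for Slc40a1. Tfrc has no value at a mean of at least 5 FPKM. In the whole table the main fit called 1 gene lower, against 0 with no filter, 2 at a mean of at least 5 FPKM and 3 with voom on recovered reads. Leaving out 1 library gave 0 to 12 lower and 0 to 1 higher calls, the largest without HKO 1.

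The labels number the replicates alike in both groups. Deviations of same-numbered libraries correlated at 0.021, 0.015 and 0.070, and those of differently numbered ones at -0.0999 to 0.0736. With 3 libraries a group these values cannot show whether the numbers pair the libraries, and the labels do not say. With the replicate block, 0 genes were called in either direction.

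Precision is limited by 3 libraries a group more than by depth, except for Hamp2 and Mt2, which rest on at most 139 and 3 reads in a library. Shared or copied sequence limits the levels of Hamp2, Trf, Ftl1 and Mt2.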
